A study of Mus musculus with 48 samples.

Results

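The 10 genes described here serve the identity of the fat cell and the storage of fat in it. They are Pparg, Cebpa, Cebpb, Fabp4, Lpl, Gpihbp1, Aqp7, Dgat2, Agpat2 and Mest, chosen by their symbols and taken as 1 row per Ensembl gene from the 6 tissue tables, which together list 15541 genes. All 10 were listed in subcutaneous white adipose tissue (WAT) and in muscle. The liver table listed 9 (Aqp7 was not among them), and each of the 3 tables of intestinal villi listed 6, without Fabp4, Lpl, Gpihbp1 and Mest.

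The mice were male C57Bl6 mice made obese on a high fat diet. They had Roux-en-Y gastric bypass (RYGB), which leads food from a small stomach pouch past the duodenum, or sham surgery, and every mouse of both groups was then given a liquid elemental diet. RNA was sequenced from fasted mice 9 days after surgery, with 4 RYGB and 4 sham libraries of WAT, of liver and of gastrocnemius muscle, 3 RYGB and 4 sham libraries of duodenal and of jejunal villi, and 5 of each of ileal villi. No transgene or genetic change is named for either group, the labels do not say whether sham mice were matched for weight, and they do not say whether equal replicate numbers in 2 tissues are 1 mouse. Each p-value comes from 1 tissue and measures the spread between its libraries, which may be technical.

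A fat cell takes up fatty acids from the blood, joins them to glycerol and keeps the resulting triglyceride in a single large droplet. PPARG (from Pparg) and C/EBPα (from Cebpa) are the transcription factors that turn a precursor into a fat cell and keep it one, and C/EBPβ (from Cebpb) acts before them. Lipoprotein lipase (from Lpl) is made by the fat or muscle cell and frees fatty acids from circulating lipoproteins at the capillary wall, to which GPIHBP1, a protein of capillary endothelial cells, carries and anchors it. FABP4 carries fatty acids inside the cell, AGPAT2 and DGAT2 add fatty acids on the way to triglyceride (DGAT2 adds the last), and AQP7 is a channel that lets glycerol through the membrane. Mest is an imprinted gene, read from the paternal copy, whose level in fat is known to go with the expansion of fat tissue.

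Levels are given in CPM, the reads of a gene scaled to a fixed library total, as the authors deposited them. CPM is not corrected for gene length, so levels are compared between libraries and tissues for 1 gene and not between genes. A fold change is the difference of the group means of log2(CPM + 1), RYGB minus sham, fitted with limma. A gene is called changed when its adjusted p (Benjamini-Hochberg over all genes tested in the tissue) was under 0.05 and its fold change was at least 1.5. The tables do not give total reads, so the depth is unknown and no counting interval can be had.

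Upstream sequence from RefSeq (GRCm38.p6) was at hand for 6 of the 10 genes, with 11 windows of 250 bases before a start site. The 3 windows shown are 1 of the 2 of Aqp7 and 1 of the 3 of Mest, which were both called, and that of the Pparg start inside the gene that is known from fat cells, and the 5′ end is on the left, on the strand of the gene. Capitals mark the nuclear receptor motif (AGGTCA on either strand), of which PPARG with its partner RXR binds a direct repeat, and the C/EBP motif (TTNNGCAA on either strand).
Aqp7, chr4:41048137-41048386, minus strand: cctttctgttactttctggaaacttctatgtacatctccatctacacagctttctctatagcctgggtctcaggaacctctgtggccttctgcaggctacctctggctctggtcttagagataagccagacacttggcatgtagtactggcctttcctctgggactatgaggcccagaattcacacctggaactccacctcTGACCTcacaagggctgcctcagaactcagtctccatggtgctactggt
Mest, chr6:30737800-30738049, plus strand: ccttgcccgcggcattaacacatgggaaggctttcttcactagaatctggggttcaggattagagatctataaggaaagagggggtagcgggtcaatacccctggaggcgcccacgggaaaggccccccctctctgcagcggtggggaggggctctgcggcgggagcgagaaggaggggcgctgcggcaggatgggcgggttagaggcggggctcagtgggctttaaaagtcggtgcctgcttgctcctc
Pparg, chr6:115421816-115422065, plus strand: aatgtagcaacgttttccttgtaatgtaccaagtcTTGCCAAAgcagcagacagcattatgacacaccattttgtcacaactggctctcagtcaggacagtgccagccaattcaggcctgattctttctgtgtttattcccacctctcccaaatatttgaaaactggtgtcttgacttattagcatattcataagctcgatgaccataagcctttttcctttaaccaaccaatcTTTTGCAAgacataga
The Aqp7 window shown held 1 nuclear receptor motif and no C/EBP motif, and the other Aqp7 window, which overlaps it, held the same motif and 1 more. The Mest window shown held neither, nor did a window that begins 3 bases from it, while the window of the Mest start further upstream held 1 C/EBP motif. The Pparg window shown held 2 C/EBP motifs and no nuclear receptor motif. Over all 11 windows of the 6 genes, 4 held the nuclear receptor motif and 2 the C/EBP motif, while 14% and 9.56% of all 32851 windows in the RefSeq table did. Since the Aqp7 windows overlap, 1 nuclear receptor motif stands in both and was counted for each. The direct repeat of PPARG and RXR, in which 2 nuclear receptor motifs stand 1 base apart and which therefore overlaps the single motif, was in 0 of the 11 windows and in 0.0335% of all windows. These are matches of letters and do not show that a factor was bound.

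Several libraries stood apart. In WAT, lymphocyte markers were listed at 1047.6 to 3038.1 CPM in sum in the RYGB libraries and at 16.4 to 28.3 CPM in the sham libraries, and 12 of 12 were called higher in RYGB. RYGB replicate 4 of WAT stood apart from the other RYGB libraries, with the highest lymphocyte sum (3038.1 CPM) and the lowest sum of the 11 fat cell markers (7470.6 CPM, against 11361.8 to 15234.5 in the other RYGB libraries and 14838.4 to 18449.6 in sham). Keratinocyte markers summed to 71.4 to 176.3 CPM in WAT sham replicates 1 to 3, to 5.6 CPM in sham replicate 4 and to 8.2 to 9.4 CPM in RYGB. In muscle, sham replicate 3 held 1228.3 CPM of fat cell markers, while the other sham libraries held 301.1 to 370.7 and the RYGB libraries 378.2 to 709. The defining genes of the labelled tissue were listed in WAT (11 of 11 fat cell markers), liver (5 of 5, 78200 to 115885 CPM in sum), muscle (5 of 5) and the 3 villus tables (5 of 5 villus genes in each), but the ileal genes Fabp6 and Slc10a2 summed to only 0.2 to 25.4 CPM in the sham and 1.7 to 101.1 CPM in the RYGB libraries of ileum.

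In WAT, 3 of the 10 genes were called changed after RYGB, all lower: Mest, Gpihbp1 and Aqp7. Their fitted levels were 4.05-fold, 2.34-fold and 2.23-fold lower. The remaining 7 genes were not called, among them the master regulators Pparg and Cebpa, the carrier Fabp4 and the lipase Lpl. Over all 13379 genes tested in WAT 24.1% were called and 9.23% were called lower, so that 3 of 10 is near the share of all genes and is no result about the group. The libraries of the groups did not overlap for these 3 genes, beside 41.2% of all genes tested. Without RYGB replicate 4 the same 3 genes and Agpat2 were called. The median log2 fold change of the 10 genes was -0.39, beside 0.11 over all genes tested, and 8 of the 10 had a lower mean in RYGB.

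**Figure D1:**
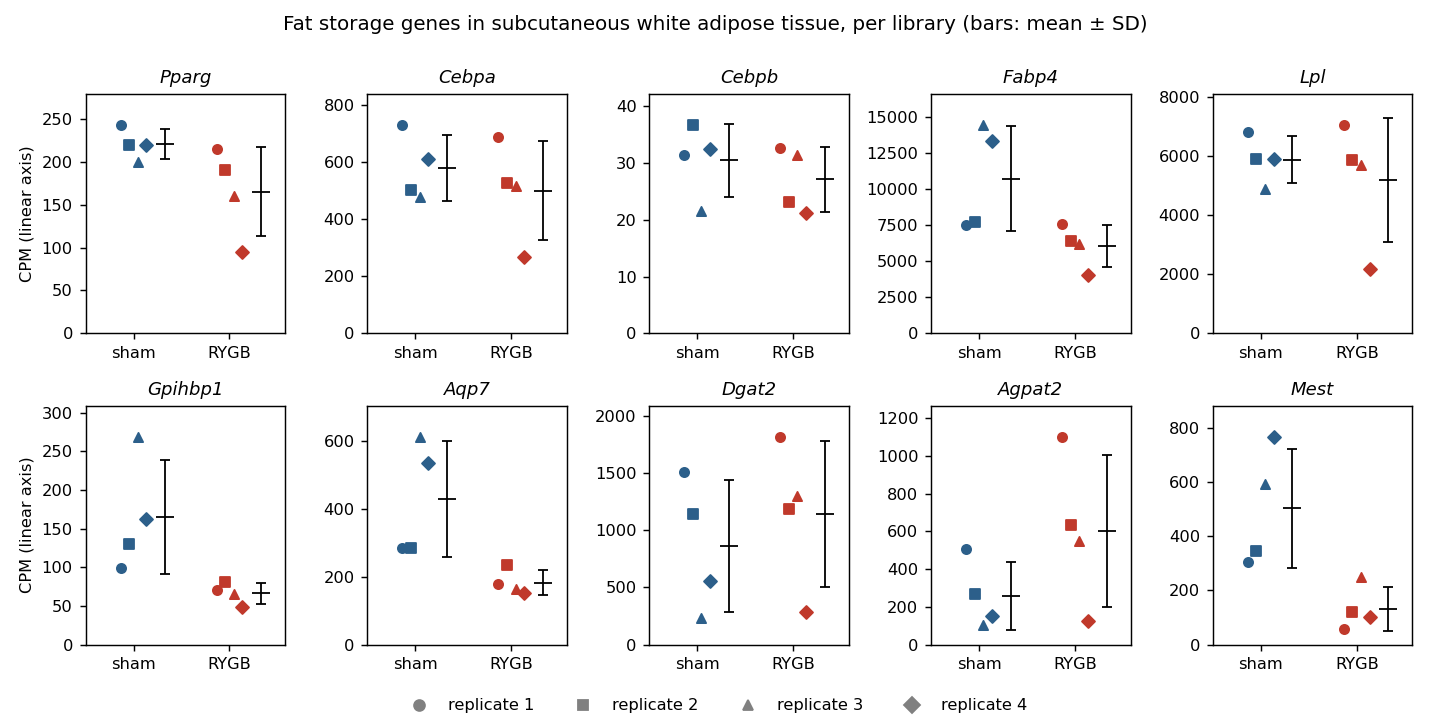
CPM (linear axes from 0) of the 10 genes in each WAT library, with a point shape per replicate number and the mean ± SD (n = 4 per group) at the right of each group. Every RYGB library lies under every sham library for Gpihbp1, Aqp7 and Mest, and RYGB replicate 4 is the lowest RYGB library for 9 of the 10 genes.

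Mest had the largest fold change of the 10. Its level was 57.1, 119.3, 247.9 and 102.3 CPM in RYGB replicates 1 to 4 and 304.5, 344.7, 594.8 and 768.3 CPM in sham replicates 1 to 4. The highest RYGB library thus lay under the lowest sham library. On the log2 scale RYGB was at -2.02 from sham (SE 0.45), with an adjusted p of 0.0109 by limma. Mest lies at chr6:30723547-30748465 on the plus strand (GRCm38, GENCODE M21), and Copg2 on the opposite strand and the microRNA gene Mir335 on the same strand overlap it. The library kit keeps strand, but the strand setting of the counting is not given in the sources used here, so reads of the overlap cannot be told apart.

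Gpihbp1, at chr15:75596628-75599481 on the plus strand, was listed at 70.2, 80.6, 65.5 and 48.7 CPM in the RYGB libraries and at 98.5, 130.4, 269.1 and 162.9 CPM in the sham libraries. The groups did not overlap, and the sham libraries were the more spread. Its log2 fold change was -1.23 (SE 0.29, adjusted p 0.0132, limma). The endothelial markers were lower as well. Of the list 10 of 10 were called lower, among them Cdh5, a junction protein of endothelial cells (352.5 ± 83.2 against 849.7 ± 201 CPM, SD, n = 4 and 4, log2 fold change -1.27, adjusted p 0.00482), Tek, the angiopoietin receptor (-1.15, adjusted p 0.00931), Esam, an adhesion molecule (-1.01, adjusted p 0.00741), and Pecam1, another (-0.66, adjusted p 0.0285). The list summed to 1292.3 to 1977.8 CPM in RYGB and 2373.5 to 4009.6 CPM in sham. With each library scaled to the endothelial markers, an alternative added after seeing the data that moved the median of all genes from 0.11 to 1.01, the log2 fold change of Gpihbp1 was -0.28 (adjusted p 0.287). In bulk tissue fewer cells of a type and less RNA per cell cannot be told apart.

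Aqp7, at chr4:41033074-41048139 on the minus strand, was listed at 178.1, 234.9, 163.7 and 152.9 CPM in RYGB and at 283.4, 284.1, 611.6 and 535.3 CPM in sham. Again every RYGB library was lower, and the sham libraries fell into a lower pair and a higher pair. With a log2 fold change of -1.16 it was called lower (SE 0.28, adjusted p 0.0144, limma). The calls of Mest, Gpihbp1 and Aqp7 held when any single library was left out, with log2 fold changes of -2.39 to -1.69, -1.44 to -0.96 and -1.33 to -0.96.

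Scaling each library to its fat cell markers, instead of taking CPM as deposited, moved the median of all genes in WAT from 0.11 to 0.57 on the log2 scale. Of the 2222 genes it called, 2160 were higher and 62 lower in RYGB. Under this scaling Mest was still called, with a log2 fold change of -1.53 (adjusted p 0.0465), while Gpihbp1 (-0.74, adjusted p 0.0928) and Aqp7 (-0.67, adjusted p 0.12) were not, and Agpat2 was called higher (1.60, adjusted p 0.0454). Of the fat cell markers themselves 3 of 11 were called lower and 0 higher (median -0.57). Adiponectin (from Adipoq), the main fat cell hormone, was listed at 1592.1, 1466.4, 1464.5 and 863.8 CPM in RYGB and at 2075.2, 1692.4, 2146 and 2153.1 CPM in sham (log2 fold change -0.61, adjusted p 0.0696, not called). Plin1 (-0.39, adjusted p 0.318) and Cidec (-0.68, adjusted p 0.077), which coat and enlarge the lipid droplet, were not called, while Plin4, another droplet coat protein, was (-0.92, adjusted p 0.0174), as was Trarg1, a partner of the glucose transporter of fat (-0.71, adjusted p 0.0299). The third marker called was Lep, which encodes the hormone leptin.

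The transcription factors were not called. Pparg was listed at 215.5, 190.3, 160.1 and 95.3 CPM in RYGB and at 242.5, 219.3, 200 and 220.1 CPM in sham. Of the 4 RYGB libraries 3 lay under the lowest sham library. This gave a log2 fold change of -0.47 (SE 0.23, 95% interval -0.99 to 0.05, adjusted p 0.127). It became a call when the lane tag was a covariate (-0.67, adjusted p 0.031). RYGB replicate 1 and sham replicate 3 were each alone in a lane, so that fit rests on lanes 5 and 6. The differences within these lanes were -0.40 and -1.20, and lane 6 holds RYGB replicate 4. Without RYGB replicate 4 the log2 fold change of Pparg was -0.23 (adjusted p 0.152). Cebpa was listed at 685.5, 526.4, 515.6 and 268.4 CPM in RYGB and at 727, 502.2, 475.7 and 610.6 CPM in sham, so that only RYGB replicate 4 lay outside the sham range. Its log2 fold change was -0.27 (95% interval -0.91 to 0.36, adjusted p 0.457). Cebpb was listed at 21.2 to 32.7 CPM in RYGB and 21.5 to 36.6 CPM in sham (log2 fold change -0.16, 95% interval -0.60 to 0.28). Tmem189 on the opposite strand overlaps Cebpb, and the antisense genes Gm44079 and Gm45091 overlap Pparg and Cebpa.

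The fatty acid carrier and the lipase showed no call either. Fabp4 was listed at 7613.9, 6424, 6179.4 and 4046.5 CPM in RYGB and at 7498.3, 7702.6, 14430.8 and 13319.8 CPM in sham. Sham replicates 3 and 4 stood well above sham replicates 1 and 2, and 3 of the 4 RYGB libraries lay under the lowest sham library. Fabp4 differed by -0.80 on the log2 scale (95% interval -1.80 to 0.21, adjusted p 0.176). Lpl was listed at 7045.3, 5873.8, 5717.9 and 2165 CPM in RYGB and at 6834.1, 5902.5, 4891.7 and 5923.8 CPM in sham. All RYGB libraries but replicate 4 lay within or above the sham range, and the log2 fold change of -0.30 (95% interval -1.28 to 0.69) was 0.08 without that library.

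The 2 enzymes of triglyceride synthesis had higher means in RYGB but wide spreads. Dgat2 was listed at 1821.1, 1188.3, 1299.7 and 281.2 CPM in RYGB and at 1515.6, 1146, 233.8 and 560.6 CPM in sham. Agpat2 was listed at 1101.1, 631.8, 547.8 and 122.3 CPM in RYGB and at 506.1, 265.6, 104.6 and 151.6 CPM in sham. For both genes sham replicate 3 was the lowest library of its group and RYGB replicate 4 of the other, and RYGB replicate 1 was the highest of all. The log2 fold change of Agpat2 was 1.11 (95% interval -0.45 to 2.67, adjusted p 0.222) and that of Dgat2 0.45 (95% interval -1.14 to 2.04, adjusted p 0.629). Without RYGB replicate 4, Agpat2 was called higher (1.75, adjusted p 0.0284), and Dgat2 was not (1.03, adjusted p 0.187). Egfl7, an endothelial gene on the opposite strand, overlaps Agpat2 (chr2:26593057-26604417, minus strand), and as 1 of the endothelial markers it was called lower.

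**Figure D2:**
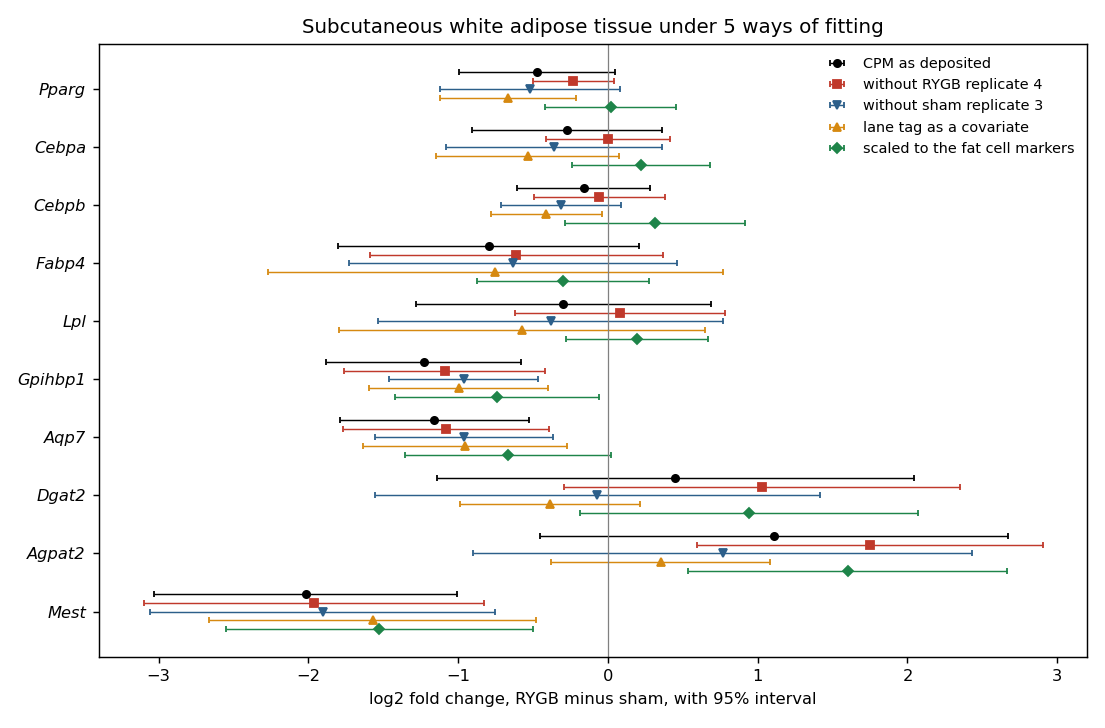
Log2 fold change (RYGB minus sham, points) with 95% intervals (lines) of the 10 genes in WAT, for CPM as deposited and 4 alternatives. Mest lies left of 0 under all 5, and Gpihbp1 and Aqp7 shrink to -0.74 and -0.67 when scaled to the fat cell markers. Dgat2 changes side with the lane tag or without sham replicate 3. Pparg, Cebpa, Cebpb and Lpl change side when scaled to the fat cell markers, and Lpl and, barely, Cebpa without RYGB replicate 4.

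The lane tag in the sample labels split the WAT libraries, and both groups shared 2 lanes. Within lane 5, with RYGB replicates 2 and 3 against sham replicates 1 and 2, the log2 difference was -0.91 for Mest, -0.63 for Gpihbp1 and -0.53 for Aqp7. Within lane 6, with RYGB replicate 4 against sham replicate 4, the library low in keratinocyte markers, it was -2.90, -1.72 and -1.80. The direction held in both lanes, and the size in lane 5 was smaller than that over all libraries. Lane 6 rests on RYGB replicate 4, the library with the lowest fat cell marker sum (7470.6 CPM). Each of the 10 genes was lower there, Lpl (-1.45) and Dgat2 (-0.99) among them, so a negative sign in lane 6 is not particular to Mest, Gpihbp1 and Aqp7. For Agpat2 the within-lane differences were 0.68 and -0.31, which are of opposite sign.

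**Figure D3:**
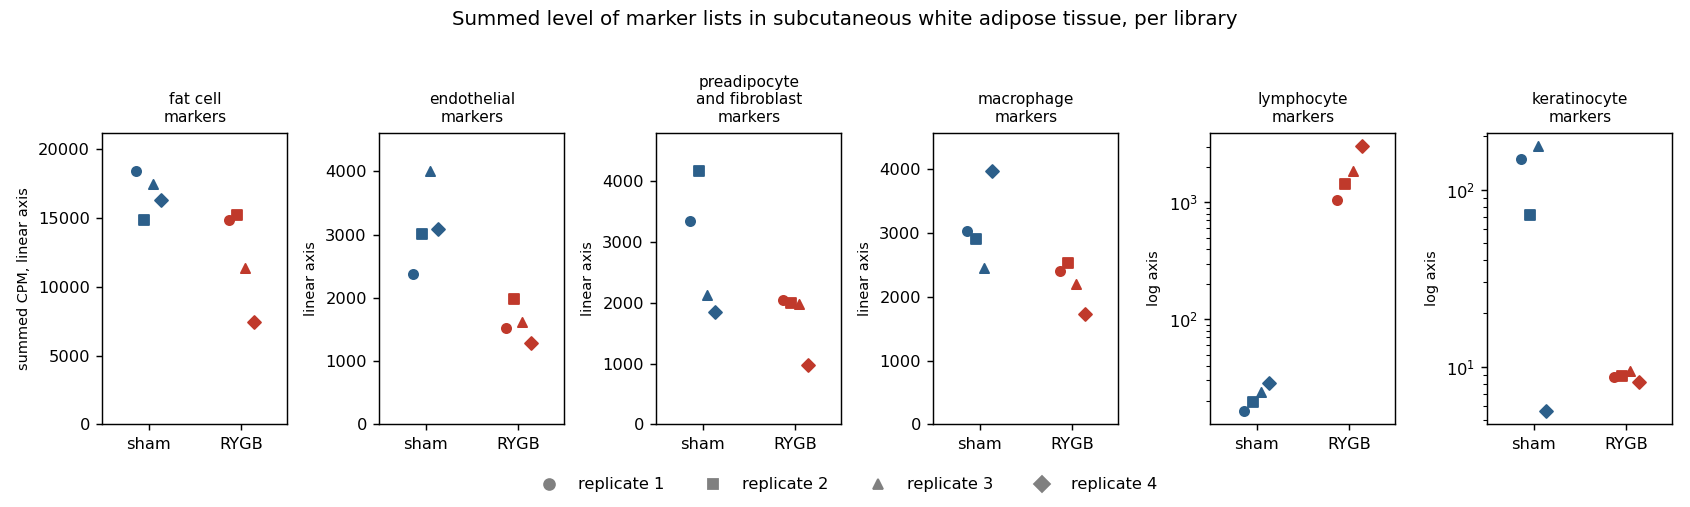
Summed CPM of 6 marker lists in each WAT library, with sham in blue and RYGB in red, on linear axes from 0 for the first 4 lists and log axes for the last 2. The endothelial sums of the groups do not overlap, the lymphocyte sums are at least 1047.6 CPM in RYGB and at most 28.3 CPM in sham, and the keratinocyte sum varies among the sham libraries.

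Markers of other cells differed between the groups as well. Macrophage markers were called lower for 5 of 8 (median -1.13), among them Lgals3, a lectin (-1.42, adjusted p 0.024), Adgre1, which encodes F4/80 (-1.19, adjusted p 0.0424), and Mrc1, the mannose receptor (-1.17, adjusted p 0.03). Of 9 markers of preadipocytes and fibroblasts only Pdgfrb, a growth factor receptor, was called (-0.70, adjusted p 0.0386), with a median of -0.49. Lymphocyte markers rose, with a median of 5.15. Cr2, a complement receptor of B cells, was listed at 0.4 to 1.1 CPM in sham and 134.9 to 269.2 CPM in RYGB, and Ms4a1, a B cell surface protein, moved likewise (6.51, adjusted p 6.26e-06). Of the keratinocyte markers 5 of 10 were listed and 3 called lower (median -2.09), and they included Krt5, listed at 0 to 0.1 CPM in RYGB and 1 to 72.1 CPM in sham, and Dsp, a protein of skin cell junctions (0.1 to 0.3 and 1.2 to 48.7 CPM). Since all 4 RYGB libraries were high in lymphocyte markers and all 4 sham libraries low, surgery and these markers cannot be told apart, and the part of the other cells in the values of the 10 genes was not tested.

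Genes of the same pathways were read from lists, whose median log2 fold changes stand beside 0.11 for all genes. Of the genes of fat expansion and imprinting, 8 of 13 tested were called lower and 0 higher (median -0.82). They included Sfrp5, a secreted WNT inhibitor (9.5, 14.4, 30.2 and 22.3 CPM in RYGB against 46.6, 201, 268.6 and 367.8 CPM in sham, log2 fold change -3.25, SE 0.61, adjusted p 0.00597), Bmp3, a secreted protein of the BMP family (17 to 28.2 against 37.7 to 93.3 CPM, -1.69, adjusted p 0.00359), and the imprinted Peg3 (78.7 to 180.1 against 197.4 to 813 CPM, -1.60, adjusted p 0.0231). These 3 genes were picked among called genes whose libraries did not overlap, so their lack of overlap is no separate result. Over all genes tested in WAT 9.23% were called lower. This list, like the others, was chosen with earlier results of these data known, so its count is a description and no test. Of 14 PPARG target genes 3 were called lower and 0 higher (median -0.61), among them Plin4.

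Among the partners of lipoprotein lipase, 3 of 11 were called lower and 1 higher (median -0.31). Sdc1, a cell surface proteoglycan that binds lipoproteins, was lower (-1.23, adjusted p 0.0055). Sorl1, a sorting receptor that can bind the lipase, was higher by 3.47 on the log2 scale (227.2 to 388.1 against 15.8 to 39.6 CPM, adjusted p 9.47e-05). Of 16 adipogenic regulators 1 was called in each direction (median -0.22), which were Klf2, a brake on fat cell formation (0.85, adjusted p 0.0119), and Zfp423, which commits precursors to the fat lineage (-0.75, adjusted p 0.0124). Klf2 (170.9 CPM) and Sorl1 (388.1 CPM) were highest in RYGB replicate 4, the library with the highest lymphocyte sum. The part of other cells in the values of Klf2 and Sorl1 was not tested. Beside Agpat2 and Dgat2, 0 of 14 genes of triglyceride synthesis (median 0.09) were called by limma, and 0 of 15 of fatty acid and glycerol handling (median -0.02).

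In the liver, 1 of 9 genes was called. Lpl, which is low in the adult liver, was higher after RYGB, at 92.5, 107.5, 110.3 and 59.6 CPM against 24.5, 28.5, 32.8 and 34.9 CPM in sham. The lowest RYGB library lay above the highest sham library. Its log2 fold change was 1.56 (SE 0.19, 2.94-fold, adjusted p 0.00185, limma), and it stayed called in every alternative run, between 1.41 and 1.75. Of 11807 genes tested in liver 7.08% were called and 5.79% were called higher. The within-lane differences were 1.66, 1.64 and 1.69 in lanes 2, 3 and 4.

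Agpat2 had the opposite order in liver. It was listed at 196.6, 172.5, 208.7 and 169.2 CPM in RYGB and at 310.2, 295.6, 257.6 and 252.5 CPM in sham, without overlap. It differed by -0.58 on the log2 scale (SE 0.12, adjusted p 0.0172), a fold of 1.49, which is just under the limit of 1.5, and it was past the limit in 6 of 14 alternatives. Within lanes the difference was -0.59, -0.56 and -0.72. For 2 of the 9 genes, Lpl and Agpat2, the libraries of the groups did not overlap, beside 16.4% of all genes tested.

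Pparg was listed in liver at 18.4, 29.5, 30.6 and 16.5 CPM in RYGB and at 7.7, 9.7, 25.7 and 10.5 CPM in sham. Sham replicate 3 lay inside the RYGB range and the other sham libraries under it. Pparg differed by 0.88 on the log2 scale (95% interval 0.16 to 1.59, adjusted p 0.111), and without sham replicate 3 it was called (1.23, adjusted p 0.0139). Cebpa was listed at 249.1 to 390.1 CPM in RYGB and 355.2 to 443.7 CPM in sham (-0.31, adjusted p 0.19). The droplet protein Cidec was at 3.4 to 18 CPM in RYGB and 0.9 to 3.3 CPM in sham (1.49, adjusted p 0.0524, not called).

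The remaining liver genes were not called either, and the median log2 fold change of the 9 was 0.39, beside 0.13 over all genes. Dgat2 had the narrowest interval of the 9, at 412.9 to 507.3 CPM in RYGB and 407.9 to 481.2 CPM in sham (95% interval of the log2 fold change -0.25 to 0.26). Fabp4 (12.8 to 30.3 against 8.7 to 18.1 CPM), Gpihbp1 (14.1 to 24.6 against 6 to 18.1 CPM), Mest (4.3 to 10.8 against 2.8 to 11.1 CPM) and Cebpb (28.7 to 80.3 against 25.7 to 65.5 CPM) overlapped between the groups. Fat cell markers that define the type were not listed in liver (Adipoq and Plin1 among them). Macrophage markers were called higher for 4 of 8 there, with Itgam, an integrin chain, at 8 to 40.4 against 1.9 to 2.7 CPM (2.23, adjusted p 0.0111), and 0 of 10 endothelial markers were called (Pecam1 0.87, adjusted p 0.0854, and Cdh5 0.68, adjusted p 0.176). Their part in the Lpl value was not tested.

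Around these genes in liver, Srebf1, the regulator of fat synthesis, was lower (-1.63, adjusted p 0.00771) and 1 other adipogenic regulator of 10 was higher. Of 10 PPARG targets only Me1, which supplies reducing power for fat synthesis, was called (-0.94, adjusted p 0.0275), while the median log2 fold change of these targets was 0.71, beside 0.13 over all genes. Of 14 genes of triglyceride synthesis only Gpat3, an enzyme of its first step, was called (14.3 to 30.3 against 7.1 to 12.2 CPM, 1.10, adjusted p 0.0234), and of 14 genes of fatty acid and glycerol handling 1 was called higher, glycerol kinase (from Gyk, 0.75, adjusted p 0.00722), and 2 lower. Of 13 lipase partners 1 was called higher, Sorl1 (1.03, adjusted p 0.0499), and 1 lower. Of 8 genes of fat expansion and imprinting, Cavin1, a coat protein of caveolae, was called (0.62, adjusted p 0.0431). Pnpla2, the first lipase of the droplet, was the fat cell marker called (0.66, adjusted p 0.0158), Lum, a matrix proteoglycan, led 2 of 8 preadipocyte and fibroblast markers (1.13, adjusted p 0.0176), and Apoa4 was called on the villus list (1.65, adjusted p 0.01).

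**Figure D4:**
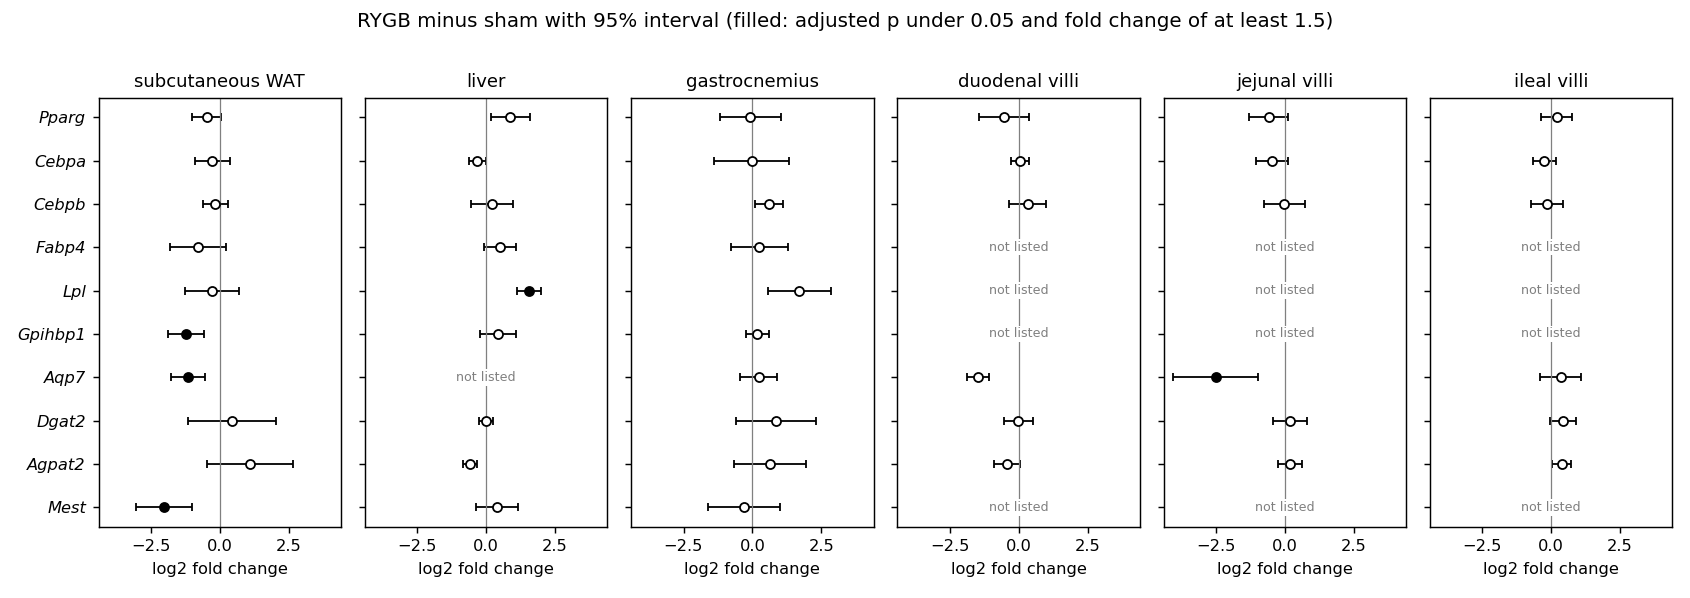
Log2 fold change (RYGB minus sham, points) with 95% intervals (lines) of each gene in the 6 tissues, filled where called. Lpl lies right of 0 in liver and muscle (1.56 and 1.70), Aqp7 lies left of 0 in WAT, duodenum and jejunum (-1.16, -1.48 and -2.52), and most other intervals include 0.

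In muscle 0 of the 10 genes were called by limma, and 0% of 11966 genes tested were called, while 2 of the 10 and 1746 of all genes had an unadjusted p under 0.05. Lpl was listed at 896, 671.7, 1725.5 and 398.3 CPM in RYGB and at 250.1, 147.6, 610.2 and 162.5 CPM in sham. All RYGB libraries except replicate 4 lay above every sham library, and replicate 4 lay above all sham libraries but replicate 3. Its log2 fold change was 1.70 (SE 0.51, 95% interval 0.56 to 2.84, adjusted p 0.184), and without sham replicate 3, the library rich in fat cell markers, it was 2.14 (adjusted p 0.0539). Within lane 2, with RYGB replicates 1 and 2 against sham replicates 1 and 2, the difference was 2.01. The 5 defining genes of fast skeletal muscle summed to less in every RYGB library (102492 to 139104 CPM) than in any sham library (143725 to 177398 CPM), with 0 of 5 called by limma and a median log2 fold change of -0.27, and their part in the Lpl value was not tested. Cebpb was the other gene with an unadjusted p under 0.05, at 12.5 to 22.2 CPM in RYGB and 7.7 to 15.4 CPM in sham (0.60, adjusted p 0.28).

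Sham replicate 3 of muscle was the highest of all 8 libraries for 6 of the 10 genes. It held 17.5 CPM of Pparg (others 2.6 to 6.9), 567.3 CPM of Fabp4 (others 106.7 to 287), 34.8 CPM of Aqp7 (others 12.6 to 27.4) and 24.1 CPM of Mest (others 1.9 to 6.1). The fat cell marker Adipoq stood at 119 CPM in that library, at 5.3 to 16.8 CPM in the other sham libraries and at 8.1 to 41.1 CPM in RYGB, and Plin1 at 67.1, at 1.7 to 9.1 and at 3.8 to 21.8 CPM. Without that library Fabp4 differed by 0.79 (adjusted p 0.0902), Dgat2 by 1.5 (adjusted p 0.111) and Aqp7 by 0.57 (adjusted p 0.106) on the log2 scale, and with it by 0.26, 0.85 and 0.24. The signs of Pparg, Cebpa and Mest turned from negative to positive (0.50, 0.60 and 0.38, none called). Gpihbp1 was at 11.5 to 19.5 CPM in RYGB and 9.3 to 15 CPM in sham, and Agpat2 at 4.8 to 30.5 and 2.9 to 18.6 CPM.

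No list was called in muscle in either direction: 0 of 16 adipogenic regulators, 0 of 14 PPARG targets, 0 of 7 lipase partners, 0 of 12 genes of triglyceride synthesis, 0 of 13 of fatty acid and glycerol handling and 0 of 13 of fat expansion and imprinting, and 0 of 10 endothelial markers (Cdh5 0.23, adjusted p 0.556). The libraries of the groups overlapped for each of the 10 genes, while they did not for 7.4% of all genes tested.

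In the villi, the glycerol channel gene Aqp7 had the largest differences of the 6 genes listed in duodenum and jejunum. In the duodenum, which food no longer passes after RYGB, it was listed at 27.9, 36.8 and 22.3 CPM in RYGB and at 76.8, 87.7, 77 and 82.8 CPM in sham. The highest RYGB library lay under the lowest sham library. The SD was 7.31 CPM on a mean of 29 CPM in RYGB and 5.22 CPM on a mean of 81.1 CPM in sham. The share of all genes without overlap was not computed for the duodenum. Its log2 fold change was -1.48 (SE 0.17, 2.79-fold lower), the unadjusted p 1.9e-05 and the adjusted p 0.0687 by limma, so it was not called, and 0 of 6 genes were, where 0.00922% of 10850 genes tested (1 gene) were. It was called without sham replicate 4 (adjusted p 0.0162), where 757 of 10854 genes tested were called. All 7 duodenal libraries came from 1 lane.

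In the jejunum, Aqp7 was called lower, the only call among the 6 genes, while 9.75% of 10854 genes tested were called and 5.13% were called lower. Its level was 67, 4.7 and 7.8 CPM in RYGB and 54.8, 117.7, 90.2 and 90 CPM in sham. RYGB replicate 1 lay within the sham range and the other 2 far under it. Aqp7 differed by -2.52 on the log2 scale (SE 0.70, adjusted p 0.0487), and it ceased to be called without any of the 4 sham libraries or without RYGB replicate 2 or 3, at -2.72 to -1.82, while it was -3.60 (adjusted p 0.000384) without RYGB replicate 1. Within lane 1, without RYGB replicate 2, the difference was -1.82.

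In the ileum 0 of 6 genes were called by limma (1 at an unadjusted p under 0.05), beside 6.05% of 10735 genes tested. Aqp7 ranged over 44.3 to 224.7 CPM in RYGB (median 87.5) and 50.4 to 83.8 CPM in sham, with a log2 fold change of 0.34 (95% interval -0.41 to 1.09). Every RYGB library of ileum was in lane 1 and every sham library in lane 2 or 3, and the effects of lane and of surgery cannot be told apart there.

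The 2 synthesis enzymes were not called in any of the villus tables. Agpat2 was at 238 to 354.2 CPM in RYGB against 304.8 to 452.1 CPM in sham in duodenum (-0.42, adjusted p 0.32), 326.6 to 491.7 against 299.2 to 407.3 in jejunum (0.18) and 358.2 to 648.4 against 300.7 to 374.2 in ileum (0.38, adjusted p 0.157). Dgat2 differed by -0.01, 0.19 and 0.42 on the log2 scale in the same order. Pparg was at 15 to 19.8 CPM in RYGB and 13.2 to 53.9 CPM in sham in duodenum, at 6.1 to 10.8 and 7.1 to 20.1 CPM in jejunum and at 3.2 to 6.5 and 2.7 to 8.6 CPM in ileum. Cebpa and Cebpb lay between 4.5 and 42.2 CPM in all villus libraries, with log2 fold changes of -0.46 to 0.33.

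Of the surrounding genes in villi, 0 were called in the duodenum in any of the lists. In the jejunum 0 were called higher and 2 lower of 11 adipogenic regulators, 0 and 2 of 9 PPARG targets, 1 and 0 of 10 lipase partners, 2 and 0 of 13 genes of triglyceride synthesis, 1 and 4 of 14 of fatty acid and glycerol handling, and 0 of 4 of fat expansion and imprinting. There Srebf1 was lower (65.9 to 127.8 against 276.1 to 468.2 CPM, -2.10, adjusted p 0.00203), as was Pck1, an enzyme that makes the glycerol backbone and glucose (2.3 to 10 against 82.8 to 251.5 CPM, -4.48, adjusted p 0.000862), while Sdc1 (1.09, adjusted p 0.0077) and Lpin1, an enzyme of triglyceride synthesis (1.24, adjusted p 0.0179), were higher. In the ileum 3 were called higher and 2 lower of 9 PPARG targets and 1 and 2 of 13 genes of fatty acid and glycerol handling, with 0 calls among 11 adipogenic regulators, 10 lipase partners, 13 genes of triglyceride synthesis and 4 of fat expansion and imprinting. Among these Me1 (19 to 210.7 against 2.7 to 10.4 CPM, 3.02, adjusted p 0.0117) and Cidec (0.88, adjusted p 0.0409) were higher and Cd36, a fatty acid transporter, was lower (27.4 to 121.7 against 219.9 to 415.3 CPM, -2.44, adjusted p 0.00451). Of the 5 villus genes, Apoa4, an apolipoprotein of the absorbing cell, was lower in jejunum (-1.47, adjusted p 0.0337), where the list summed to 17609.8 to 37165 CPM in RYGB and 44319.8 to 70545 CPM in sham. Lymphocyte markers were called lower for 4 of 4 listed in jejunum and 3 of 3 in ileum, among them Cd8a (-1.88, adjusted p 0.00411, and -1.99, adjusted p 0.00962), and the fat cell marker Acvr1c (-1.11, adjusted p 0.0308) and the endothelial marker Tek (-0.85, adjusted p 0.0497) were lower in jejunum at a few CPM at most. Their part in the Aqp7 values was not tested.

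**Figure D5:**
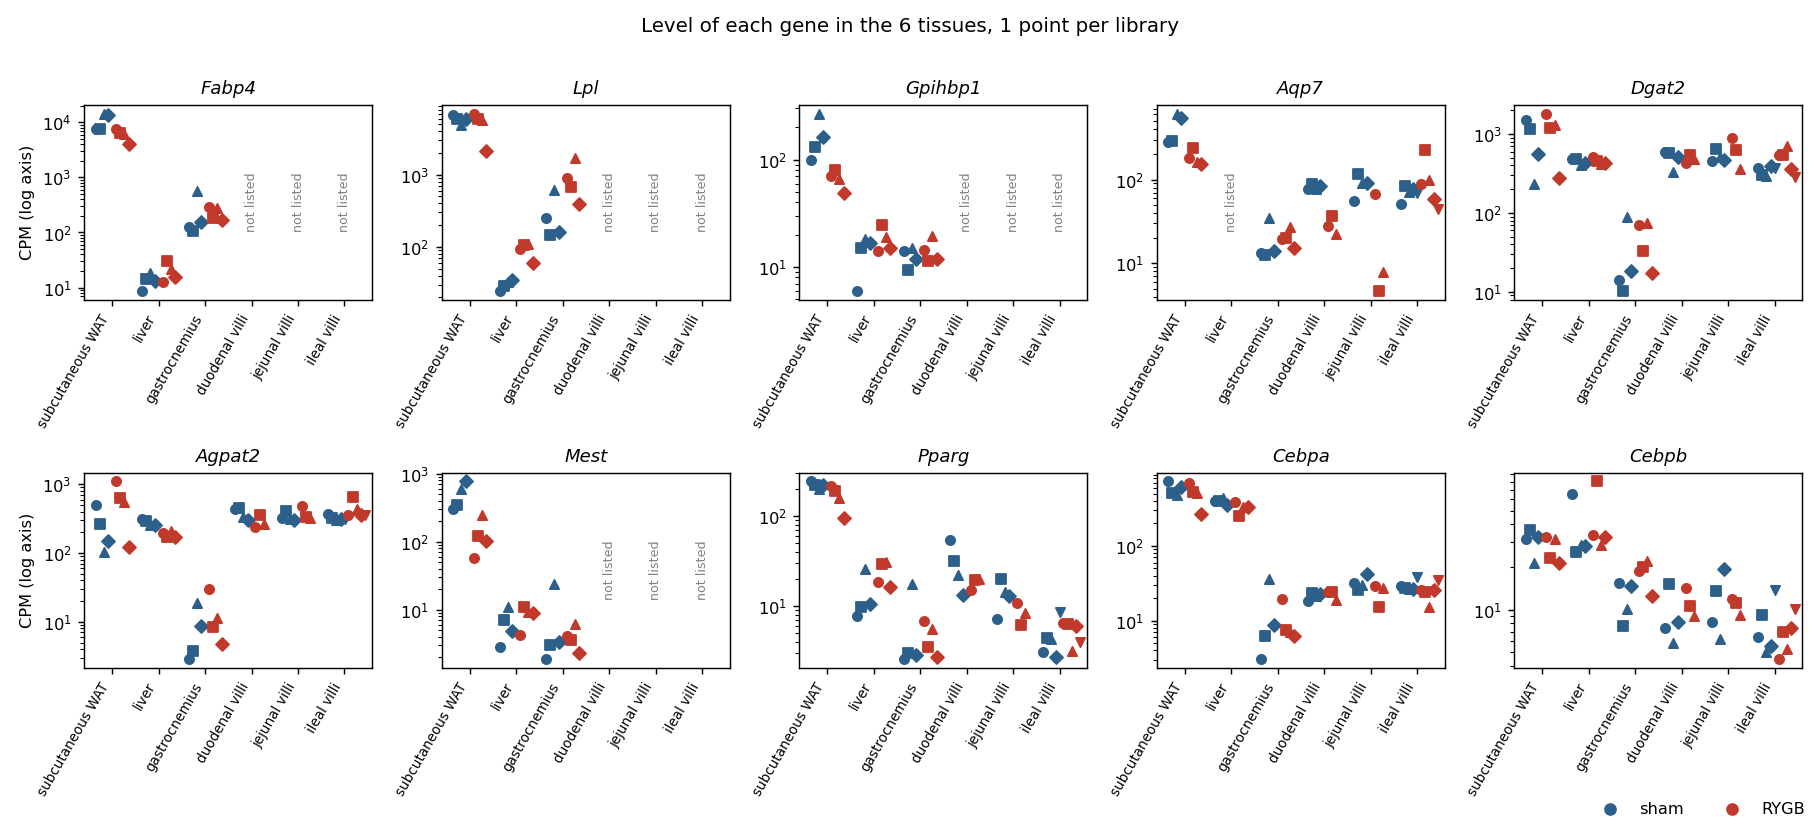
CPM (log axes) of each gene in every library of the 6 tissues, sham in blue and RYGB in red, with a point shape per replicate number. Fabp4, Lpl, Gpihbp1 and Mest are at least 11.8 times higher in sham WAT than in the next tissue. The WAT libraries of Agpat2 (104.6 to 1101.1 CPM) and Dgat2 (233.8 to 1821.1 CPM) spread widely and overlap liver and each villus tissue, while muscle is lowest.

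The 6 tables were normalized separately, so the order of a gene's levels across tissues is a description without a test. In the sham libraries 8 of the 10 genes had their highest mean in WAT. The ratio to the next tissue was 62.1 for Mest (503.1 ± 219 CPM in WAT and 8.1 ± 10.7 CPM in muscle, SD, n = 4 each), 45 for Fabp4 (10738 ± 3652 and 238.7 ± 220 CPM in muscle), 20.1 for Lpl (5888 ± 794 and 292.6 ± 217 CPM in muscle), 11.8 for Gpihbp1 (165.2 ± 74.1 CPM and 14 ± 5.45 CPM in liver) and 7.31 for Pparg (220.5 ± 17.4 and 30.2 ± 17.5 CPM in duodenum). For these 5 genes the WAT libraries did not overlap those of the next tissue. After WAT the order was muscle and then liver for Fabp4 and Lpl, without overlap, while muscle and liver overlapped for Gpihbp1 and Mest.

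Cebpa was highest in WAT and then in liver, with 578.9 ± 115 CPM in WAT, 399.1 ± 36.2 CPM in liver and 32.6 ± 6.93 CPM in jejunum, and with no overlap between these neighbours. Aqp7 followed WAT (428.6 ± 170 CPM) with the villi, at 88.2 ± 25.8 CPM in jejunum, 81.1 ± 5.22 CPM in duodenum and 69.9 ± 12.5 CPM in ileum (n = 5), which overlapped each other, and then muscle at 18.7 ± 10.7 CPM. Dgat2 (864 ± 575 CPM in WAT) overlapped jejunum (522.9 ± 89 CPM), duodenum and liver in turn, and only muscle, at 33.2 ± 37.9 CPM, was far lower. Cebpb was highest in liver (37 ± 19 CPM), overlapping WAT (30.5 ± 6.39 CPM). Agpat2 was highest in the duodenum (381.9 ± 74.7 CPM) and then jejunum, ileum, liver and WAT, each overlapping the next, with muscle last at 8.5 ± 7.22 CPM. After RYGB, WAT had the highest mean of Agpat2 (600.8 ± 401 CPM), which still overlapped the ileum.

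For the 5 genes listed in all 6 tables, the most alike genes over the 12 group means of log2(CPM + 1), out of 8771 genes, included Mtmr2, Zfp266 and Rragc for Pparg (Pearson r 0.968 to 0.962), Cnpy3 and Dpm3 for Cebpa (0.991 to 0.989), Cab39l, Psmg1 and Fars2 for Cebpb (0.973 to 0.970), Cand1, H3f3b and Faf2 for Dgat2 (0.994 to 0.987) and Slc25a10, Mpdu1 and Idnk for Agpat2 (0.989 to 0.987). These 12 points fall into tissues, so r mostly restates the tissue levels, and it is given as a description.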

How the data were processed

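Libraries came from a strand-keeping mRNA kit, 48 in all. The authors deposited 1 table per tissue of CPM rounded to 0.1, a unit read from column sums of 925122 to 998777. The submitters' processing notes name HTSeq and GRCm38, and versions and strand setting are not given in the sources used here. Repeated lines (1771) and 12 incomplete liver lines were left out. In each tissue, log2(CPM + 1) of RYGB and sham libraries was compared by limma 3.58.1 (R 4.3.3, trend), where genes averaged 1 CPM or more. The step was tested on simulated data. Tables were handled in Python 3.11.15.

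Genes, lists and tests were chosen with earlier results of these data known. The 10 genes are named in every tissue. From each list, the 3 called genes in WAT (1 in other tissues) with the largest change and no overlap of libraries are named, with Adipoq, Plin1, Cidec, Pecam1 and Cdh5 as markers. Egfl7, Lep, Fabp6 and Slc10a2 were named after their values were seen, and some genes this rule names are not reported here. Alternatives covered the pseudocount, the minimum CPM, scaling (endothelial scaling was added after seeing the data), left-out libraries, lane tag, replicate block and call rule. Coordinates are from GENCODE M21.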

Additional observations from a re-analysis of the deposited data

Results flagged for a closer look

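Of 82 groups of 4 or 5 libraries of the 10 genes, 7 held a library far from the rest of its group, and chance alone flags about 1 in 20. In muscle, sham replicate 3 stood far above the other sham libraries for Pparg (17.5 CPM, others 2.6 to 3) and Aqp7 (34.8 CPM, others 12.6 to 14.2). RYGB replicate 1 of muscle stood out for Cebpa (19.7 CPM, others 6.2 to 7.5). In liver, RYGB replicate 2 (80.3 CPM, others 28.7 to 33.9) and sham replicate 1 (65.5 CPM, others 25.7 to 28.6) were high for Cebpb, and sham replicate 1 was low for Gpihbp1 (6 CPM, others 15.2 to 18.1). In ileum, sham replicate 5 was high for Cebpa (38.4 CPM, others 26.4 to 28.7). None of these genes was called in its tissue with CPM as deposited. Groups of 3 libraries were not examined in this way.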

How the results depend on the processing

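In all, 582 of 661 alternative values of the 10 genes kept their direction and their side of the call, and 49 changed sign, among which Cebpa and Cebpb in WAT with endothelial scaling became calls. With the sign kept, 17 more became calls and 13 lost one. Depth is unknown, so counting error cannot be separated from the spread between libraries, genes of a few CPM are read in steps of 0.1 CPM, and leaving out a library leaves groups as small as 2. The cause of each change below was not tested.

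Of the 10 genes, 3 were called in WAT, 1 in liver, 1 in jejunum and 0 elsewhere. In WAT the count was 4 with the lane tag as a covariate, where 4049 of all 13379 genes tested were called. It was 2 with fat cell marker scaling, where 2222 of 13392 were called. It was 5 with endothelial scaling (Mest lower, and Agpat2, Dgat2, Cebpa and Cebpb higher). That scaling called 10105 of 13392 genes, 99.5% of them higher, so these 5 are no result about the group. In liver it was 2 by adjusted p alone or with median ratio scaling, 3 with the lane tag, 3 by unadjusted p under 0.05, and 1 to 3 with a library left out. In muscle it was 2 by unadjusted p, in duodenum and ileum 1. In jejunum it was 0 with a mean of at least 10 CPM, with median ratio scaling and with the lane tag, and 0 to 1 with a library left out, as it was in duodenum. The lane tag could not be fitted in duodenum and ileum. In the other tissues, libraries of a lane that held only 1 of the groups add nothing to the fitted difference. The lane tag fit thus rests on lanes 5 and 6 in WAT and on lane 2 in muscle. In jejunum it rests on lane 1, so its differences repeat those without RYGB replicate 2.

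Over all genes, 3231 were called in WAT, 836 in liver, 1058 in jejunum, 650 in ileum, 1 in duodenum and 0 in muscle. By unadjusted p alone these were 6685, 3181, 2667, 2842, 2040 and 1746, and by adjusted p alone WAT had 4980. With a mean of at least 10 CPM liver had 458, muscle 3, jejunum 664 and ileum 333. Muscle had 2 with median ratio scaling, and jejunum 469 with the lane tag. Endothelial scaling gave 10105 in WAT. With a library left out the counts ran from 329 to 1204 in liver, 0 to 210 in muscle, 0 to 757 in duodenum, 462 to 1015 in jejunum, and between 312 and 766 for the ileum. Without sham replicate 4 the duodenum had 757.

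Whether replicate numbers pair RYGB and sham libraries could not be decided from 3 to 5 pairs per tissue. The correlation of equally numbered libraries ran from -0.25 to 0.39 in WAT, -0.06 to 0.27 in liver and -0.28 to 0.28 in ileum. It ran from -0.27 to 0.22 in muscle, -0.27 to 0.11 in jejunum and -0.17 to -0.05 in duodenum. Own numbers matched best for 3 of 4 pairs in liver, 1 of 4 in WAT, 2 of 5 in ileum and 0 elsewhere. With the replicate block, 3 of the genes were called in WAT, 2 in liver (Pparg added, adjusted p 0.0266), 1 in muscle (Lpl, 1.70, adjusted p 0.00747), 1 in duodenum (Aqp7, -1.47, adjusted p 0.0344), 1 in jejunum and 0 in ileum. The replicate block moved the count over all genes to 3328 (WAT), 1236 (liver), 184 (muscle), 268 (duodenum), 960 (jejunum) and 580 (ileum), and turned the sign of Dgat2 in duodenum (0.0067) and Cebpb in jejunum (0.24).

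Scaling by median ratio moved the median over all genes (log2) from 0.11 to -0.0012 in WAT, from 0.13 to -0.01 in liver and from 0.12 to 0.0045 in duodenum, and the share of calls that were higher from 61.8% to 49.6% in WAT, 81.8% to 65% in liver and 27.1% to 46.9% in ileum. Fat cell marker scaling moved the WAT median to 0.57 and that share to 97.2%, and endothelial scaling to 1.01 and 99.5%. Signs that turned were those of genes not called with CPM as deposited. With fat cell marker scaling in WAT Pparg was 0.0176, Cebpa 0.22, Cebpb 0.31 and Lpl 0.20. With endothelial scaling Pparg was 0.48, Cebpa 0.69, Cebpb 0.76, Fabp4 0.16 and Lpl 0.66, of which Cebpa (adjusted p 0.0492) and Cebpb (adjusted p 0.0249) were called. Each of these values lay under the median of 1.01 over all genes with that scaling. With the lane tag Dgat2 was -0.39 in WAT and -0.0048 in liver, and in muscle Pparg was 0.65, Cebpa 1.29 and Mest 0.51. That muscle fit rests on lane 2 alone, with RYGB replicates 1 and 2 against sham replicates 1 and 2. Median ratio scaling gave -0.15 for Dgat2 in liver, -0.0685 for Cebpa in duodenum and 0.0436 for Cebpb in jejunum, and a pseudocount of 0.1 gave 0.0068 for Cebpa in muscle.

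With a library left out, log2 fold changes that turned sign ran as follows. In WAT Cebpa ran from -0.45 to 0.0005, Lpl from -0.49 to 0.0811 and Dgat2 from -0.0713 to 1.03. In liver Cebpb ran from -0.11 to 0.53 and Dgat2 from -0.0521 to 0.0467. In muscle Pparg ran from -0.29 to 0.50, Cebpa from -0.47 to 0.60, Fabp4 from -0.0083 to 0.79 and Mest from -0.65 to 0.38. In duodenum Cebpa ran from -0.0139 to 0.17 and Dgat2 from -0.20 to 0.0812. In jejunum Cebpb ran from -0.26 to 0.24, Dgat2 from -0.11 to 0.54 and Agpat2 from -0.0109 to 0.28, and in ileum Cebpb from -0.29 to 0.047 and Aqp7 from -0.0021 to 0.58.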
